A study of Mus musculus with 12 samples.

Results

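Arrays with the label activated B cell were compared with arrays with the label activated T cell, 3 of each and 6 of the 12 arrays of a series on mouse spleen lymphocytes. The members were taken by the cell type label alone. Resting cells had been sorted with magnetic beads from the spleens of C57Bl/6 x FVB mice, and activated cells had been cultured for 4 days. The arrays recorded transcription in B and T lymphocytes for a study of chromosome contacts of the immunoglobulin heavy chain locus. The question here was which genes separated the labelled activated groups, and how much of that separation the labelled resting groups also had. The sources give an antibody to CD40 and interleukin 4, which stand in for T cell help, for the cells labelled activated B. For those labelled activated T they give antibodies to CD3 and CD28 and interleukin 2, which stand in for antigen, costimulation and a growth factor. This assignment of the stimuli rests on the same labels as the cell type. By the labels the stimulus differed together with the cell type, and the effects of stimulus and cell type cannot be told apart from these 6 arrays. By the same labels, the arrays labelled resting B (3, CD43-negative cells) and resting T (3, B220-negative cells) came from cells taken directly from the spleen. All 4 groups shared the mouse strain, the RNA extraction and the array type. Whether the 3 arrays of each group stem from different mice is not stated in the sources used here, so p-values measure only the spread between these arrays, which may be technical.

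T cells recognize antigen through the T cell receptor, whose CD3 and zeta chains pass the signal to the kinase Zap70 and the adaptor Lat. B cells use the B cell receptor, in which Cd79a and Cd79b play the signalling part, and they display antigen on MHC class II molecules. These lineage genes mark what a lymphocyte is, whereas genes for DNA replication, mitosis, ribosomes and metabolism mark whether it grows and divides, which both kinds of lymphocyte do after activation. The lineage genes are held in place by factors such as Gata3 and Bcl11b in T cells and Pax5 and Ebf1 in B cells.

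The values were log2 expression values, 1 per gene and array, on which a difference of 1 log2 is a change of 2-fold. A level of 5.21 log2, below which 95% of the olfactory receptor genes lay, was taken as background. Where the mean of the lower group was under that level, any fold given is a lower bound, written as at least so many fold, and the log2 difference is the measured one. The bound takes for each array of the lower group its own background, 5.06 to 5.28 log2 in these 6 arrays, or the gene's own value where that is higher. Genes were tested with limma over all 19937 genes, and called where the p-value after Benjamini-Hochberg adjustment was under 0.05. Differences are those of labelled activated B minus labelled activated T. Each was split into a shared part, the mean of this difference and of the same difference between the labelled resting groups, and a crossed part, which is what remains. A gene whose labelled resting groups differ by as much in the same direction has only a shared part. When the labelled resting groups differ by as much in the opposite direction, only a crossed part remains. If the labelled resting groups do not differ, the shared and crossed parts are equal. A shared part alone therefore does not show that a difference was present between the labelled resting groups. Both parts were tested in the same fit.

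The genes that define each lineage went against the labels, and so did the division genes between the labelled resting and activated T groups. All 9 T cell markers measured were higher in the labelled activated B arrays, with a median difference of 3.64 log2, and all 9 B cell markers were lower there, with a median of -5.75 log2. The median over all genes tested was -0.03 log2. Cd3e, the epsilon chain of CD3, measured 9.92, 10.19 and 10.10 log2 in the labelled activated B arrays and 6.36, 6.19 and 6.74 log2 in those labelled activated T. It differed by 3.64 log2 (12.5-fold, SE 0.17, adjusted p = 2.68e-11). Cd79a, the alpha signalling chain of the B cell receptor, measured 4.02, 5.0 and 4.49 log2 in the labelled activated B arrays, all under background, and 11.79, 11.61 and 11.52 log2 in those labelled activated T. The difference was -7.13 log2 (SE 0.24, adjusted p = 4.99e-13), at least 93.4-fold. No array of either group stood on the side its label gives for either gene. The labelled resting arrays went the same way, with a mean of 10.61 log2 for Cd3e in labelled resting B and 5.93 log2 in labelled resting T. The direction was the same in all 6 arrays, so no comparison could be made without the arrays concerned, and the groups are called by their labels throughout.

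The 7 markers of dividing cells also differed, all of them higher in the labelled activated B arrays, with a median of 3.90 log2. Mki67, which codes for the Ki-67 protein of cycling cells, measured 10.57, 10.59 and 10.57 log2 in the labelled activated B arrays and 5.80, 6.27 and 6.88 log2 in those labelled activated T. The labelled activated B arrays were high and close together, and those labelled activated T were low and more spread. The difference was 4.26 log2 (19.2-fold, SE 0.21, adjusted p = 4.94e-11). Among the labelled resting groups the order was the opposite, with a mean of 6.56 ± 0.42 log2 in labelled resting B and 10.18 ± 0.08 log2 in labelled resting T (SD, n = 3 each). For Mki67 the shared part was 0.32 log2 (adjusted p = 0.144) and the crossed part 3.94 log2 (adjusted p = 1.72e-12). The labelled resting T arrays thus had more Mki67 than those labelled activated T, against what these labels give, and the labelled activated B arrays more than those labelled resting B. Whether labels were exchanged was not tested. For Cd3e the shared part was 4.16 log2 and the crossed part -0.52 log2. In RNA from a bulk sample, fewer cells of a type and less RNA of that type per cell cannot be told apart.

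**Figure D1:**
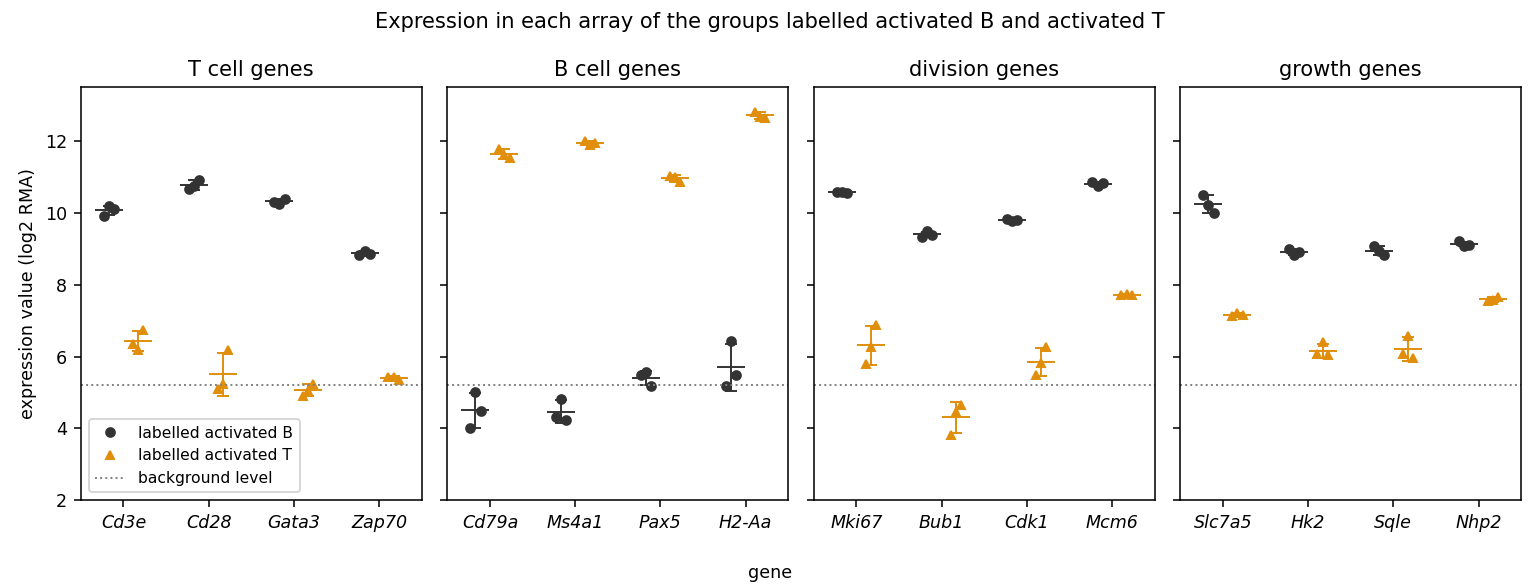
Expression values (vertical axis, log2 RMA) of 16 genes in each labelled activated B (circles) and labelled activated T (triangles) array, with the mean as a horizontal line and the SD as an error bar, n = 3 each. The dotted line is the background level of 5.21 log2. T cell, division and growth genes were higher in all 3 labelled activated B arrays, and B cell genes were higher in all 3 labelled activated T arrays.

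The difference ran through much of the transcriptome. Of the genes tested, 40.7% were called, 21.8% higher and 18.9% lower in the labelled activated B arrays, which is 4348 and 3772 genes. Centering each array on its own median gave 68.5% of the called genes as higher, against 53.5% on the deposited scale, and moved the median of all genes from -0.03 to 0.10 log2. At 2-fold or more, 1478 genes were called higher and 951 lower, and at 8-fold or more 205 and 146. The 3 arrays of one label did not overlap the 3 of the other for 51.1% of all genes. Of the called genes, 685 had both group means under background. The shared part was called positive for 14.6% and negative for 12.3% of all genes, and the crossed part for 21.9% and 20.9%.

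A gene was named mostly shared or mostly crossed where the smaller part was under 0.25 of the larger in size. Of the 4348 genes called higher in the labelled activated B arrays, 395 were mostly shared, 1635 mostly crossed and 2318 held both. Among the 3772 genes called lower, 348 were mostly shared, 974 mostly crossed and 2450 held both. The named lists fell into different places on these axes. Of the 50 called members of the 5 lists of B cell genes, 10 were mostly shared, none mostly crossed and 40 held both. Of the 33 called members of the lists of T cell receptor, signalling and transcription factor genes, 21 were mostly shared, none mostly crossed and 12 held both. Of the 88 called members of the 3 division lists, none was mostly shared, 74 were mostly crossed and 14 held both.

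**Figure D2:**
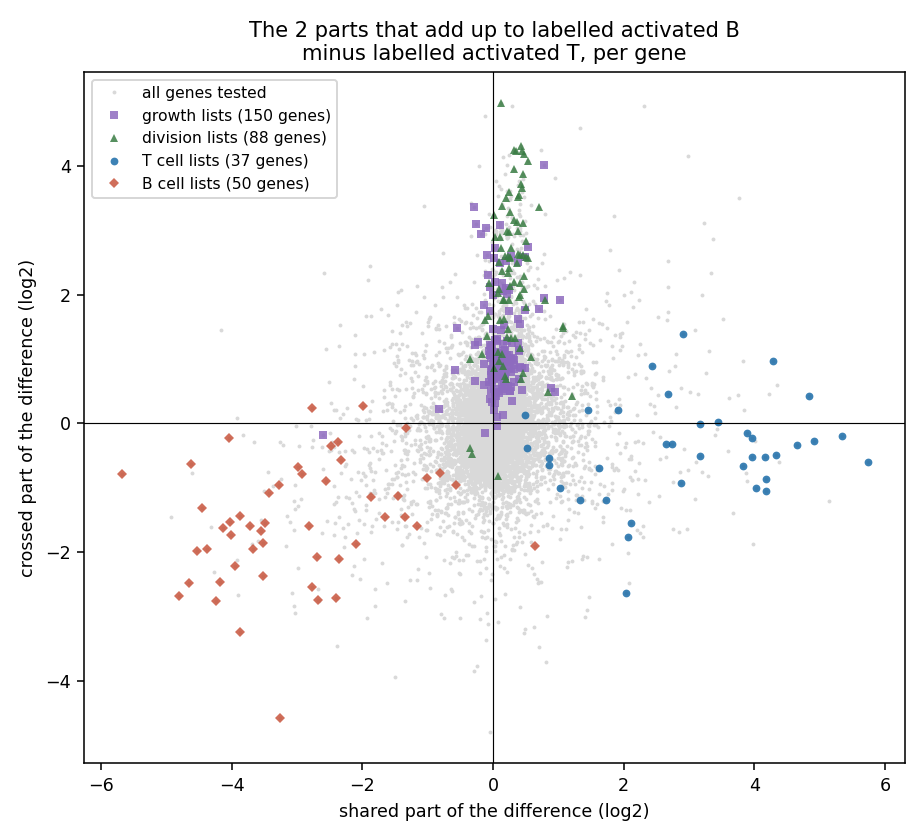
Each point is a gene, with the shared part of its difference on the horizontal axis and the crossed part on the vertical axis, both in log2. The 37 T cell genes lie to the right and the 50 B cell genes mostly to the left and below 0, whereas most of the 88 division and 150 growth genes lie above 0 near the middle of the horizontal axis.

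The genes with the largest differences were lineage genes and products of activated lymphocytes. Akr1c18, which codes for an aldo-keto reductase that breaks down progesterone, measured 11.45, 10.86 and 10.52 log2 in the labelled activated B arrays and 3.56, 3.69 and 3.77 log2 in those labelled activated T, a difference of 7.27 log2 and at least 52.1-fold (adjusted p = 3.35e-14). It was under background in every labelled activated T array. Cyp11a1, the enzyme of the first step of steroid synthesis, differed by 6.24 log2, at least 49.9-fold. Gzmb, the protease granzyme B of cytotoxic granules, measured 12.71, 12.74 and 12.76 log2 against 4.90, 5.86 and 5.76 log2 (7.23 log2, SE 0.35, adjusted p = 2.91e-11). Il2ra, the alpha chain of the interleukin 2 receptor, differed by 7.13 log2, at least 106-fold. Il24, a cytokine gene, and Pros1, the gene for protein S, were higher by 6.34 and 5.92 log2, at least 49.7-fold and 26.6-fold. Ecm1, an extracellular matrix protein, differed by 5.67 log2, and Il12rb2, a chain of the interleukin 12 receptor, by 5.20 log2.

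In the other direction, Cr2, the complement receptor CD21 of B cells, measured 4.43, 4.52 and 3.72 log2 in the labelled activated B arrays and 12.07, 12.11 and 11.98 log2 in those labelled activated T. With -7.83 log2 (SE 0.33, adjusted p = 7.1e-12), at least 125-fold, it had the largest difference of all the genes named. Its crossed part of -4.57 log2 was larger than its shared part of -3.26 log2. Ms4a1, which codes for the B cell surface protein CD20, differed by -7.49 log2, at least 116-fold. Cybb, a subunit of the phagocyte oxidase, Ly6d, a surface protein of B cells, and Rasgrp3, an activator of Ras, differed by -6.58, -6.56 and -6.37 log2. The arrays of the groups did not overlap for any of these genes.

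The T cell receptor and coreceptor genes were all higher in the labelled activated B arrays, 12 of 12, with a median of 3.69 log2. Cd28, the costimulatory receptor, had the largest difference of the list. It measured 10.66, 10.74 and 10.92 log2 in the labelled activated B arrays and 5.09, 5.24 and 6.18 log2 in those labelled activated T (5.27 log2, SE 0.24, adjusted p = 1.53e-11). Cd3g and Cd3d, further chains of the receptor complex, differed by 5.14 and 4.63 log2, and Cd247, the zeta chain, by 2.41 log2. Both coreceptors were higher, Cd4 by 3.43 log2 and Cd8a by 3.12 log2. Cd2, an adhesion receptor, had the smallest difference with 0.30 log2 (adjusted p = 0.0334). Of the labelled activated B arrays that of replicate 2 was the highest for 9 of the 12, and of those labelled activated T that of replicate 6 was the highest for 11 of the 12, such as Cd3g with 5.64, 5.98 and 7.57 log2. For 9 of the 12 the difference was mostly shared.

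Genes that carry the T cell receptor signal were called higher for 13 of 14 members, with a median of 3.08 log2. Zap70, the kinase that binds the phosphorylated receptor chains, measured 8.84, 8.95 and 8.85 log2 against 5.44, 5.43 and 5.34 log2. It differed by 3.47 log2 (SE 0.10, adjusted p = 1.31e-13), nearly all of it shared (3.45 log2). Themis, a signalling protein of T cells, differed by 5.14 log2, at least 24.6-fold, Prkcq, the kinase PKC-theta, by 4.33 log2 and Lat by 3.85 log2. Txk, a kinase of the Tec family, was the exception, at 5.62, 6.34 and 5.70 log2 against 6.08, 6.38 and 7.004 log2. Its groups overlapped, and its difference of -0.60 log2 (adjusted p = 0.0427) lost its call in 8 alternative settings, with p-values up to 0.246, among them without replicate 1 or 3 of labelled activated B or replicate 5 or 6 of labelled activated T. The mean of Txk was 10.31 ± 0.19 log2 in labelled resting B and 5.65 ± 0.35 log2 in labelled resting T, which gave a shared part of 2.03 log2 and a crossed part of -2.63 log2.

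Of 11 T cell transcription factors, 7 were called higher and none lower, with a median of 0.62 log2, and the shared part was called positive for all 11. Gata3, which directs T cell development and the T helper 2 program, measured 10.30, 10.26 and 10.40 log2 against 4.89, 5.05 and 5.24 log2, a difference of 5.26 log2 and at least 33.8-fold (adjusted p = 1.79e-13). Lef1, a partner of beta-catenin, Bcl11b, which keeps T cells to their lineage, and Satb1, a chromatin organizer, differed by 3.13, 2.32 and 1.67 log2. Tox, Eomes, Foxp3 and Zbtb7b were not called, with differences between 0.01 and 0.21 log2. These 4 had their highest group mean in labelled resting B, from 7.04 log2 for Foxp3 to 8.19 log2 for Zbtb7b.

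Effector molecules of T cells were less uniform, with 11 of 21 called higher and 2 lower and a median of 0.54 log2. Over all genes tested 21.8% were called higher and 18.9% lower, so 2 of 21 lower is under that share. Il10, an inhibitory cytokine, measured 7.98, 8.11 and 8.03 log2 in the labelled activated B arrays and was under background in all labelled activated T arrays (4.35 log2, at least 6.97-fold, adjusted p = 5.79e-14). The T helper 2 cytokine genes Il4 and Il13 differed by 2.84 and 2.15 log2. Prf1, which codes for the pore-forming protein perforin, was higher by 1.57 log2, and Ifng and Fasl were not called (0.34 and 0.15 log2). The chemokine genes Ccl5 and Xcl1 went the other way, differing by -1.23 log2 (adjusted p = 0.00215) and -0.75 log2 (adjusted p = 0.00112). Ccl5 was spread widely in the labelled activated T arrays, at 8.86, 9.47 and 10.43 log2, and Xcl1 was near or under background in all 6 arrays.

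Receptors for costimulation and cytokines were higher for 14 of 15 members, with a median of 3.95 log2, the largest of the T cell lists. Ctla4, the inhibitory receptor, measured 10.30, 10.62 and 10.52 log2 against 4.95, 5.39 and 5.70 log2 (5.14 log2, adjusted p = 2.07e-12). Icos and Tnfrsf4, both costimulatory, differed by 4.94 and 4.27 log2. Il7r, a chain of the receptor for the survival cytokine interleukin 7, differed by 3.95 log2 and was mostly shared, with 5.15 log2 in the shared part and -1.20 log2 in the crossed part. Tnfrsf8, or CD30, differed by 4.76 log2 and was mostly crossed, with means of 8.37 log2 in labelled resting T and 5.50 log2 in labelled resting B. Il2ra had both, 2.98 log2 shared and 4.15 log2 crossed, and between the labelled resting groups it differed the other way, by -1.16 log2. Havcr2 was the member not called (0.16 log2).

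The B cell genes were the mirror image in direction. All 15 receptor and surface genes, all 11 signalling genes, all 11 transcription factors, all 9 genes of MHC class II presentation and all 4 immunoglobulin and joining chain genes were lower in the labelled activated B arrays. The medians were -5.32, -5.04, -4.27, -5.22 and -3.004 log2. The crossed part was negative as well for most of these genes, with medians from -2.07 log2 for the surface genes to -1.08 log2 for the transcription factors, so that the labelled resting groups differed less than the labelled activated groups. Ms4a1 measured 4.31, 4.83 and 4.24 log2 against 11.997, 11.90 and 11.94 log2. Its mean was 8.52 ± 0.87 log2 in labelled resting B and 10.64 ± 0.04 log2 in labelled resting T. The level in labelled resting B was thus not at background, and it was the most spread of the 4 groups. Cd79b, the beta chain of the receptor pair, differed by -5.32 log2 (SE 0.26, adjusted p = 3.54e-11) and was above background in every array. Fcer2a, the low-affinity IgE receptor CD23, which IL-4 is known to raise in B cells, differed by -6.47 log2, at least 49.2-fold, and was mostly shared.

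Among the signalling genes, Blnk, the adaptor of the B cell receptor pathway, measured 4.56, 4.41 and 4.89 log2 against 10.37, 10.37 and 10.38 log2, a difference of -5.75 log2 and at least 39.0-fold (adjusted p = 5.23e-12). Bank1, a scaffold of the same pathway, differed by -7.11 log2, at least 79.1-fold, and held both parts (crossed -3.24 and shared -3.88 log2). Ly86, a partner of the receptor RP105, differed by -6.52 log2 and the kinases Blk and Btk by -5.62 and -5.04 log2. The smallest difference of this list was that of the adaptor Dapp1 (-1.58 log2). Pax5, the factor that commits cells to the B lineage, measured 5.47, 5.56 and 5.19 log2 against 11.03, 11.01 and 10.85 log2 (-5.56 log2, SE 0.17, adjusted p = 3.17e-13). Ebf1, which acts with Pax5, differed by -6.34 log2, at least 35.6-fold, and Spib, an Ets family factor, by -5.74 log2. Pou2af1, the coactivator OCA-B, and Mef2c were mostly shared, with shared parts of -4.04 and -4.63 log2.

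In MHC class II presentation, H2-Aa, the alpha chain of the I-A molecule, measured 5.18, 6.44 and 5.49 log2 in the labelled activated B arrays and 12.82, 12.68 and 12.65 log2 in those labelled activated T (-7.01 log2, SE 0.25, adjusted p = 1.04e-12). The array of replicate 2 was the highest of the labelled activated B arrays, and the groups were far from overlap. Cd74, the invariant chain that guards the peptide groove, differed by -6.64 log2 and H2-Ob, a chain of the peptide-exchange regulator H2-O, by -6.17 log2. Ciita, the coactivator that class II genes depend on, differed by -4.23 log2, at least 18.1-fold. Immunoglobulin transcripts also differed, Ighm, the IgM heavy chain constant region, by -3.11 log2 and Igha by -4.41 log2. Jchain, the joining chain of secreted antibody, differed by -1.28 log2 and was near background in both labelled activated groups, against 10.97 log2 in labelled resting B and 8.42 log2 in labelled resting T. Immunoglobulin probe sets can share sequence between related constant regions, so these values are uncertain as to the gene.

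Since the class II genes moved together, their promoters are of interest. They are known for a compound element of which the X2 box is the part bound by CREB-like factors and the CCAAT box the part bound by NF-Y. The X2 box was searched as TGACGTCA, TGATGTCA, TGACGCAA or TGATGCAA and the CCAAT box as CCAAT, on both strands. Promoter sequences from RefSeq (build GRCm38.p6) were found for 6 of the 9 genes, with 7 promoters. The CCAAT box was in 5 of the 7 and the X2 box in 2 of the 7, against 37.4% and 6.64% of all 32851 promoters. Neither was particular to this list, since the CCAAT box was in 81.2% of the promoters of the cholesterol list and 78.1% of those of the mitosis list, and the X2 box in 3 of the 11 promoters of the aminoacyl-tRNA synthetases. The 2 class II promoters with an X2 box are printed, 150 bases up to the annotated start and 5′ to 3′ along the gene, with the X2 box and CCAAT box in capitals. That of H2-Aa lies at chr17:34287824-34287973 (minus strand) and that of H2-Ob at chr17:34238755-34238904 (plus strand).
H2-Aa: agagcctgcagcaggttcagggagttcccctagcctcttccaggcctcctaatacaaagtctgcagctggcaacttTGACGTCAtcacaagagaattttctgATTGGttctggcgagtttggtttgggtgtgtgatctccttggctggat
H2-Ob: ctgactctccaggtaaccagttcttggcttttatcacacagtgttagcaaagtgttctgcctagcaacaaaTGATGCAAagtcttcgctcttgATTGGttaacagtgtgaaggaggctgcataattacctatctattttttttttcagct
In both, the X2 box (starting at positions -74 and -79 from the start) came before the CCAAT box (-48 and -57), which was read on the strand opposite to the gene. A match describes the letters only and not binding.

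The genes of DNA replication and mitosis moved in 1 direction. All 32 genes of DNA replication and all 36 genes of mitosis were higher in labelled activated B, with medians of 2.37 and 3.53 log2, and in all 68 the arrays of the groups did not overlap. The crossed part was positive for every one of them, with medians of 2.09 and 3.26 log2, while the medians of the shared part were 0.24 and 0.32 log2. Among the mitotic genes, Bub1, a kinase of the spindle checkpoint, had the largest difference. It measured 9.33, 9.49 and 9.38 log2 in the labelled activated B arrays and 3.82, 4.45 and 4.66 log2 in those labelled activated T, which were all under background (5.09 log2, at least 17.9-fold, adjusted p = 2.66e-13). In the labelled resting groups its means were 4.37 ± 0.15 log2 (B) and 9.22 ± 0.02 log2 (T). Ncapg, a condensin subunit, Top2a, which untangles chromosomes, and Tpx2, a spindle assembly factor, differed by 4.74, 4.67 and 4.57 log2. Cdk1, the kinase that drives entry into mitosis, measured 9.84, 9.79 and 9.79 log2 against 5.49, 5.81 and 6.26 log2 (3.95 log2, SE 0.18, adjusted p = 1.17e-11). Plk1 and Ccnb2, a kinase and a cyclin of mitosis, differed by 3.90 and 4.06 log2. Within the labelled activated T arrays, that of replicate 6 was the highest for 31 of the 36 mitotic genes, as it was for the T cell receptor genes. The histone gene H2ac4, named by its crossed part of 4.24 log2, differed by 4.97 log2.

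Among the replication genes, Mcm6, a subunit of the replicative helicase, measured 10.85, 10.74 and 10.84 log2 against 7.73, 7.73 and 7.71 log2 (3.09 log2, SE 0.10, adjusted p = 3.47e-13). Cdc6, which loads that helicase, differed by 3.33 log2 and Orc1, a subunit of the origin recognition complex, by 3.08 log2, at least 4.46-fold. Mcm5 and Mcm2 differed by 2.39 and 2.36 log2. Pcna, the sliding clamp, differed by 1.59 log2, with 11.41, 11.39 and 11.38 log2 against 9.93, 9.75 and 9.73 log2. The lowest of the list was Pold1, a DNA polymerase subunit, with 0.64 log2.

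Of 20 genes that control the step from G1 to S phase, 17 were higher and 3 lower, with a median of 1.51 log2. The cyclin genes Ccne1 and Ccne2 differed by 2.71 and 3.004 log2, and E2f8, a repressor of the E2F family, by 3.10 log2. Ccnd2, a D-type cyclin, measured 11.47, 11.43 and 11.52 log2 against 8.76, 8.74 and 9.27 log2 (2.55 log2, adjusted p = 3.1e-11). Its means in the labelled resting groups, 11.32 and 11.74 log2, were near that of labelled activated B, so that labelled activated T was the group that stood apart. Lower were Ccnd1 (-0.76 log2, adjusted p = 0.00775), E2f5 (-0.79 log2) and Rb1, the retinoblastoma protein (-0.73 log2). Without the array of replicate 6 of labelled activated T the call of Ccnd1 was lost (adjusted p = 0.0542).

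**Figure D3:**
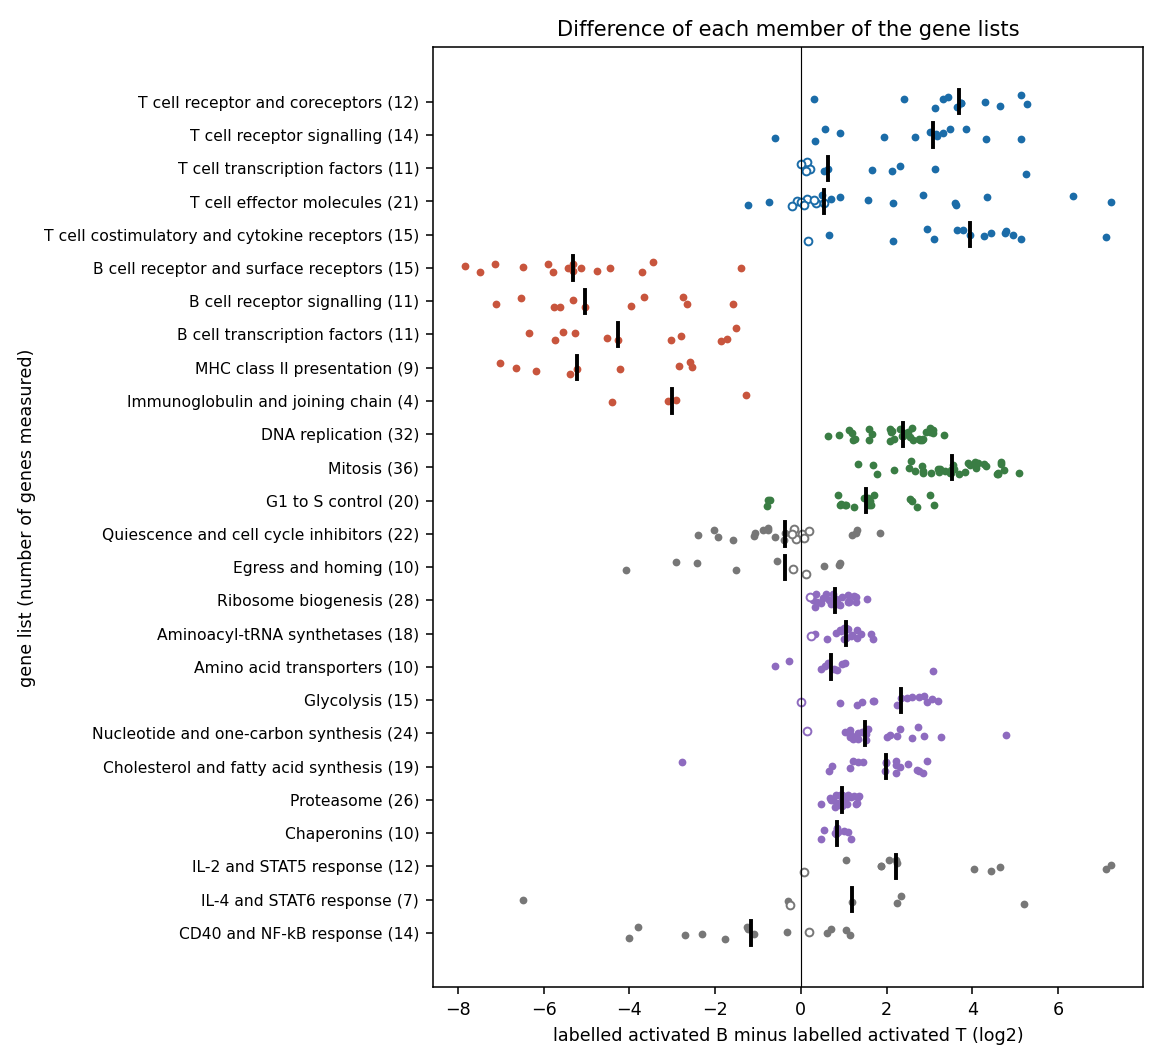
Difference of each measured member of the gene lists (horizontal axis, labelled activated B minus labelled activated T in log2), 1 row for each list with its number of genes. Filled points were called and open points were not, and the black bar is the median of the list. All B cell genes lie below 0, all replication and mitosis genes above 0, and the growth lists lie above 0 but for Scd1 and 2 amino acid transporters.

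The promoters of the division genes were read in the same way, because mitotic and replication genes are known to be turned on by different factors. Mitotic genes often carry a cell cycle homology region (CHR, searched as TTTGAA), which the DREAM and MuvB complexes use, and a CCAAT box. Genes of DNA replication often carry an E2F site (searched as TTTGGCGC, TTTCCCGC, TTTCGCGC or TTTGCCGC). The window searched ran from 250 bases before the annotated start to 50 after it. Promoters were found for 30 of the 36 mitotic genes and 26 of the 32 replication genes. The CHR was in 78.1% of 32 mitotic promoters and in 13.3% of 30 replication promoters, against 17.9% of all promoters. It was also in 41.7% of the 12 promoters of the T cell costimulatory and cytokine receptor list. An E2F site was in 43.3% of the replication promoters and 6.25% of the mitotic promoters, against 2.26% of all. Among the growth lists it was in 16.7% of the 12 chaperonin promoters and 13.3% of the 30 ribosome biogenesis promoters. The CCAAT box was in 78.1% of the mitotic and 56.7% of the replication promoters. In the G1 to S list, 33.3% of 18 promoters held an E2F site. The E box CACGTG, to which Myc binds, was in 7.15% of all promoters and in 16.7% of those of the ribosome biogenesis list, but also in 3 of the 7 promoters of the dendritic cell list and 3 of the 11 of the aminoacyl-tRNA synthetases. CHR and CCAAT matches overlapped in 47 of the 2284 promoters that hold both, CCAAT and E2F matches in 5 of 316 and CCAAT and X2 matches in 14 of 826.

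**Figure D4:**
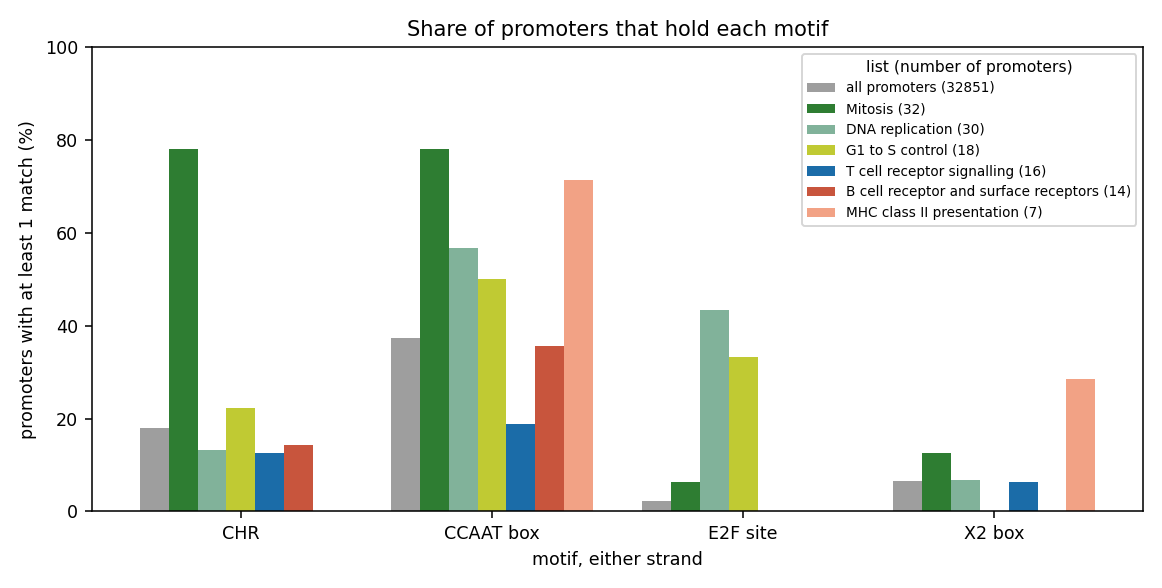
Percent of promoters with at least 1 match to each motif on either strand (vertical axis), by gene list, with the number of promoters in the key. The CHR stood at 78.1% in the mitosis list and 17.9% in all promoters, and the E2F site at 43.3% in the replication list and 2.26% in all promoters.

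Promoters of some members of these lists are printed to show these elements. They were picked by hand as examples and not by the size of the difference. Again 150 bases up to the annotated start are given (RefSeq, GRCm38.p6), with each CHR, CCAAT box, E2F site and X2 box in capitals. For mitosis these are Cdk1 at chr10:69352913-69353062 (minus strand), Top2a at chr11:99024190-99024339 (minus strand) and Ncapg at chr5:45669775-45669924 (plus strand).
Cdk1: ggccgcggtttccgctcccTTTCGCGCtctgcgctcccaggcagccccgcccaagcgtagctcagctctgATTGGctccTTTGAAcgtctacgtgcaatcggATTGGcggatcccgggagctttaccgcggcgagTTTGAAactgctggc
Top2a: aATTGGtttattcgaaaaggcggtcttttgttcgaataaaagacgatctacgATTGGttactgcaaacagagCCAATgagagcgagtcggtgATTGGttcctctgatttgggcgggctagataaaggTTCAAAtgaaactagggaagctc
Ncapg: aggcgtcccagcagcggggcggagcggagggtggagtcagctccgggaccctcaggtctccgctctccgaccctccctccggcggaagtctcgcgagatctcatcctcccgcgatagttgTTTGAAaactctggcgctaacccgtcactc
For replication they are Mcm6 at chr1:128359706-128359855 (minus strand), Mcm5 at chr8:75109359-75109508 (plus strand) and Cdc6 at chr11:98908001-98908150 (plus strand).
Mcm6: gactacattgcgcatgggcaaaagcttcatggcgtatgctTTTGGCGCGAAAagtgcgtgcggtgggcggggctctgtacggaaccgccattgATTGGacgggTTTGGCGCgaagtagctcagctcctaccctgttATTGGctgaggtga
Mcm5: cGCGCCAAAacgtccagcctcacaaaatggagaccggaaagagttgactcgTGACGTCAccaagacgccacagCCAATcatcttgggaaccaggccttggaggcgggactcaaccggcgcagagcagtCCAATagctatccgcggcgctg
Cdc6: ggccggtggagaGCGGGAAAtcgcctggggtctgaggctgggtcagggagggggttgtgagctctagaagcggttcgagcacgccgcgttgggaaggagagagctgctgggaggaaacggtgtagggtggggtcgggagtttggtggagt
In the mitotic promoters a CHR lay close before the start, at -15 in Cdk1, -23 in Top2a and -30 in Ncapg, and Top2a held 4 CCAAT boxes. Cdk1 also had an E2F site at -131 and a second CHR at -71. Mcm6 held 3 E2F matches, of which those at -110 and -106 overlap in 1 run of capitals, and Mcm5 and Cdc6 held 1 each, at -149 and -138. Mcm5 also held an X2 box at -99. No CHR was in the 3 replication windows printed, which says only that its letters are not there.

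Growth genes moved in the same direction as the division genes, with medians of the 8 lists from 0.70 to 2.32 log2. Of 28 genes of ribosome biogenesis 27 were higher, with a median of 0.80 log2. Myc, the transcription factor that drives growth, measured 10.36, 10.13 and 10.33 log2 against 8.92, 8.95 and 9.11 log2 (1.28 log2, SE 0.10, adjusted p = 8.18e-09). Its means in labelled resting B and T were 9.03 and 9.99 log2. Nhp2, a core protein of box H/ACA particles, and the nucleolar protein genes Npm1 and Ncl differed by 1.54, 1.28 and 0.91 log2. Aminoacyl-tRNA synthetases were higher for 17 of 18, with a median of 1.05 log2, the largest being Yars (1.69 log2) and Gars (1.63 log2). All 26 proteasome genes and all 10 chaperonin genes were higher, with medians of 0.96 and 0.85 log2 and Psmb2 and Cct6a as the largest (1.36 and 1.17 log2). The crossed part was positive for all 26 and all 10. No member of these 4 lists was called lower.

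Metabolic genes followed. In glycolysis 14 of 15 were higher, with a median of 2.32 log2. Slc16a3, a lactate exporter, measured 9.56, 9.48 and 9.26 log2 against 5.88, 6.53 and 6.30 log2 (3.19 log2, SE 0.15, adjusted p = 3.05e-11). Tpi1, triose phosphate isomerase, differed by 3.07 log2, Hk2, a hexokinase, by 2.75 log2 and Pkm, pyruvate kinase, by 2.32 log2. The glucose transporter Slc2a1 differed by 0.92 log2, and its mean of 9.17 ± 0.21 log2 in labelled activated T lay above that of 8.16 ± 0.20 log2 in labelled resting B (SD, n = 3). Among nucleotide and one-carbon genes 23 of 24 were higher, with a median of 1.504 log2, led by Rrm2, a subunit of ribonucleotide reductase, with 11.05, 10.93 and 11.07 log2 against 5.85, 5.95 and 6.88 log2 (4.79 log2, adjusted p = 4.52e-12). Psat1, of serine synthesis, and Tyms, thymidylate synthase, differed by 3.27 and 2.88 log2.

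For cholesterol and fatty acid synthesis 18 of 19 genes were higher, with a median of 1.99 log2. Idi1, Sqle and Hmgcs1, enzymes of the sterol pathway, differed by 2.93, 2.74 and 2.21 log2. The median of the shared part was -0.0021 log2, the closest to 0 of the growth lists, and 17 of the 19 were mostly crossed. Scd1 and Scd2, both stearoyl-CoA desaturases, went opposite ways. Scd2 measured 11.64, 11.56 and 11.63 log2 against 8.87, 8.86 and 8.58 log2 and was higher by 2.84 log2 (adjusted p = 1.64e-12). Scd1 measured 8.63, 8.61 and 8.58 log2 against 11.27, 11.43 and 11.44 log2 and differed by -2.77 log2 (SE 0.24, adjusted p = 4.45e-08). The difference of Scd1 was mostly shared (-2.60 log2) and that of Scd2 mostly crossed (3.10 log2). Among amino acid transporters 8 of 10 were higher, with a median of 0.70 log2. Slc7a5, the light chain of the large neutral amino acid transporter, stood out with 3.07 log2 (8.42-fold), and its partner Slc3a2 differed by 0.85 log2. Lower were Slc43a1 (-0.61 log2) and Slc38a2 (-0.27 log2, adjusted p = 0.0283, a call lost in 6 alternative settings, among them without each array of labelled activated B in turn and without replicate 4 or 5 of labelled activated T).

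Genes of quiescence were mixed. Of 22 quiescence genes and cell cycle inhibitors 12 were lower and 4 higher in the labelled activated B arrays, with a median of -0.38 log2. Klf2, a factor that keeps T cells quiescent, measured 7.24, 7.21 and 7.27 log2 against 9.81, 9.43 and 9.66 log2 (-2.40 log2, SE 0.12, adjusted p = 6.21e-11). Btg2 and Btg1, both antiproliferative, differed by -2.03 and -1.58 log2, Foxp1 by -1.93 log2, Foxo1 by -1.09 log2 and Cdkn1b, the inhibitor p27, by -0.88 log2. All of these but Foxo1 were mostly crossed. Higher were the inhibitors Cdkn2c (1.84 log2) and Cdkn2d (1.19 log2), the Rb relative Rbl2 (1.28 log2) and the Myc antagonist Mxi1 (1.31 log2). Members that are known to restrain the cell cycle thus lay on both sides. Of all genes tested 21.8% were called higher and 18.9% lower, so 4 of 22 higher is no more than that share.

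Of 10 genes of egress and homing 5 were lower and 3 higher, with a median of -0.38 log2. The shares over all genes tested were 18.9% lower and 21.8% higher. Of the 3 higher, Itgb7, an integrin subunit, lost its call in 4 alternative settings (adjusted p 0.0576 to 0.0762), among them without replicate 3 of labelled activated B or 5 or 6 of labelled activated T. S1pr1, the receptor with which lymphocytes leave lymphoid organs, measured 7.86, 7.92 and 7.9999 log2 against 10.87, 10.84 and 10.79 log2 (-2.90 log2, SE 0.10, adjusted p = 4.9e-13). Its labelled resting groups were further apart and the other way round, with 10.91 ± 0.12 log2 in labelled resting B and 6.38 ± 0.13 log2 in labelled resting T, so that its crossed part was -3.71 log2 and its shared part 0.81 log2. Itga4, an integrin subunit, differed by -2.43 log2 and was also mostly crossed. Ccr6, a chemokine receptor, differed by -4.09 log2, at least 10.03-fold, and Cxcr4 by -1.52 log2. Ccr7, which guides lymphocytes to lymph nodes, was not called (0.12 log2, adjusted p = 0.317), and was called only when each array was centered on its median. Other genes with a large negative crossed part were Rgs2, a regulator of G proteins (-3.84 log2), the heat shock gene Hspa1a (-3.77 log2) and the early response gene Fos (-3.37 log2). Fos measured 5.30, 5.41 and 5.13 log2 in the labelled activated B arrays and 9.26, 8.59 and 8.42 log2 in those labelled activated T, and its means in labelled resting B and T were 8.73 and 5.47 log2.

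Genes that respond to the stimuli named in the labels were examined as 3 lists. Of 12 genes of the interleukin 2 and STAT5 response, the pathway of the cytokine that the labels give for activated T, 11 were higher in the labelled activated B arrays and none lower, with a median of 2.23 log2. Cish, a feedback inhibitor of this pathway, measured 9.56, 9.64 and 9.52 log2 against 5.39, 5.45 and 5.74 log2 (4.05 log2, SE 0.11, adjusted p = 1.17e-13). Socs2, a further feedback inhibitor, differed by 4.65 log2, at least 19.2-fold. Osm and Pim1 differed by 2.05 and 2.23 log2. Cish and Socs2 were both mostly crossed, with means of 8.94 and 11.31 log2 in labelled resting T. Gzmb and Il2ra were also in this list.

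Interleukin 4 is given by the labels for activated B. Of 7 genes of the interleukin 4 and STAT6 response 4 were higher and 2 lower, with a median of 1.20 log2. The shares over all genes tested were 21.8% higher and 18.9% lower. Nfil3, a leucine zipper factor, measured 10.16, 10.32 and 10.36 log2 against 5.23, 4.90 and 5.07 log2 (5.21 log2, at least 32.5-fold, adjusted p = 1.33e-13), and its mean in labelled resting T was 10.36 log2. Il4ra, the receptor, and Batf were higher by 1.20 and 2.34 log2. Fcer2a and Ccl17 were lower, and the call of Ccl17 (-0.30 log2, under background in all 6 arrays) was lost in 8 alternative settings, among them without replicate 1 or 3 of labelled activated B or 4 or 5 of labelled activated T. Ccl22, a chemokine gene, was under background in most arrays of both groups and not called, while its mean was 9.71 log2 in labelled resting T. Of 14 genes of the CD40 and NF-kB response 9 were lower and 4 higher in the labelled activated B arrays, with a median of -1.17 log2. Cd83 and Cd86, surface proteins of activated antigen-presenting cells, differed by -4.02 and -3.80 log2, Rel, an NF-kB subunit, by -2.69 log2 and Nfkb2 by -1.25 log2. Cd83 and Rel were mostly shared. The 4 higher were Traf1, Cd80, Fas and Ebi3, with 0.62, 1.05, 1.15 and 0.70 log2. Cd80, Fas and Ebi3 had their highest group mean in labelled resting T.

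Markers of other cell types moved with the groups as well. Of 12 macrophage and monocyte markers 11 were lower in the labelled activated B arrays, with a median of -1.86 log2, and their summed level ran from 8.44 to 8.61 log2 in the labelled activated B arrays and from 10.54 to 11.22 log2 in those labelled activated T. Slc40a1, the iron exporter of splenic macrophages, measured 3.34, 3.55 and 3.71 log2 against 9.18, 7.85 and 8.07 log2 (-4.84 log2, at least 9.69-fold). Csf1r and Vcam1 differed by -2.07 and -3.004 log2, and Mpeg1 by -5.24 log2. The mean of Mpeg1 in labelled activated T, 8.67 log2, was above that of Slc40a1, 8.37 log2. The summed level there thus follows Mpeg1 in part. Slc40a1 and Vcam1 were highest in the array of replicate 4, as were 8 of the 12 members. Their part in the genes that were lower in the labelled activated B arrays was not tested. The summed level is the log2 of the summed linear levels of the list. Dendritic cell markers were lower for 7 of 8 (median -1.20 log2), with a summed level from 7.79 to 8.03 log2 against 8.96 to 9.26 log2, and Itgax and Siglech differed by -1.09 and -1.83 log2. Zbtb46, a transcription factor of dendritic cells and 1 of the 7, lost its call in 8 settings (adjusted p 0.0636 to 0.249), among them without any 1 of the 6 arrays.

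Of 7 natural killer cell markers 4 were lower and 3 higher, with a median of -0.77 log2, and the summed level was 11.06 to 11.39 log2 against 8.60 to 9.91 log2. Ncr1, the receptor that defines these cells, was under background in the labelled activated B arrays, at 3.87, 4.09 and 3.96 log2, and measured 5.56, 6.24 and 7.50 log2 in those labelled activated T. All 7 were highest in the array of replicate 6 among those labelled activated T. Nkg7, which cytotoxic T cells also express, was higher by 3.22 log2. Its mean of 10.98 log2 in labelled activated B made up most of the summed level there, so that sum mainly follows this gene. Klrd1 was higher by 1.12 log2, a call that was lost without the array of replicate 4 of labelled activated T and in 1 other setting (adjusted p 0.0608 to 0.0667). Of 8 neutrophil markers Ly6g was higher (3.20 log2, at least 3.67-fold) and Retnlg lower (-0.90 log2, lost in 3 settings, adjusted p 0.0653 to 0.117, among them without replicate 3 of labelled activated B or 6 of labelled activated T). The other 6 were not called, and 5 of the 8 had both group means under background. The summed level was 8.25 to 8.28 log2 against 7.68 to 7.98 log2, and it includes Ly6g, with means of 7.12 and 3.92 log2. Of 4 platelet markers 3 were lower, led by Ppbp (-2.78 log2), of which Gp9 lost its call in 6 settings, among them without replicate 3 of labelled activated B or any array of labelled activated T, with a summed level of 6.99 to 7.13 log2 against 8.20 to 8.38 log2. None of the 4 erythroid markers was called by limma, with adjusted p-values from 0.0813 to 0.196 and 1 of the 4 at an unadjusted p under 0.05, and their summed level was 7.29 to 7.39 log2 against 7.30 to 7.76 log2. Without replicate 5 of labelled activated T, 2 of them (Alas2 and Slc4a1) were called lower. Of 7 plasma cell markers 3 were higher and 2 lower, with a median of 0.07 log2 and a summed level of 11.16 to 11.38 log2 against 10.98 to 11.04 log2. Prdm1, Xbp1 and Irf4, which activated T cells are also known to use, were higher by 2.53, 1.38 and 0.66 log2, whereas Mzb1 and Jchain differed by -3.95 and -1.28 log2. The part of these markers in the other results was not tested. Beside the counts of these small lists, 21.8% of all genes tested were called higher and 18.9% lower.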

How the data were processed

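RNA of 12 mouse spleen lymphocyte samples was measured on Affymetrix gene arrays. The values the authors deposited are log2 expression values, 1 per probe set and array, credited to RMA in the submitters' processing notes; its version is not given in the sources used here. RMA brings the arrays to a common distribution, so a shift of most genes at once cannot be seen. Of 34760 probe sets, 21640 had 1 gene symbol, 1321 several and 11799 none named here. The brightest probe set was used for each of the 954 genes with more than 1, which gave 19937 genes. Background was the 95th percentile of 1027 olfactory receptor genes. Array medians ran from 5.50 to 5.68 log2, and at most 0.069% of values were identical between any pair of arrays. The precision is limited by the number of arrays.

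All 12 arrays entered 1 limma fit (limma 3.58.1, R 4.3.3) with a mean for each labelled group, empirical Bayes variances and Benjamini-Hochberg adjustment over all genes. The fit was tested on simulated data with 200 changed genes and independent noise. That is far fewer than the 8120 genes called here, so the simulation says little about the calls in these data. Plots were drawn with matplotlib 3.10.9 and tables made with numpy 2.4.6 and pandas 2.3.3 under Python 3.11.15. The comparison, the gene lists and the motifs were chosen with earlier results of these data known. Named genes were the 12 with the largest difference in each direction, the first 4 and the 3 largest of each list, members called against most of their list, and the 6 with the largest shared and crossed parts in each direction. Cd2, Cd4, Cd8a, Ciita, Dapp1, Eomes, Foxp3, Havcr2, Il4, Il13, Pold1, Tnfrsf8, Tox and Zbtb7b fell outside this rule and were chosen after their values were seen. Alternatives changed the centering, normalization, filter on dim genes, choice of probe sets, arrays in the fit, variance model, replicate block and the arrays included, 1 at a time.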

Additional observations from a re-analysis of the deposited data

Results flagged for a closer look

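Among the 45 genes with the largest differences or the largest shared and crossed parts, 37 had a crossed part past the test. Over all 19937 genes tested, 8518 had one. Some of the 45 were picked for a large crossed part, so their place among the 37 followed from the choice. For these the difference of labelled B minus labelled T was not the same between the activated groups and between the resting groups, by the interaction term of the limma fit. The crossed part in log2 is given in parentheses after each gene.

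In 16 of the 37 the labelled resting groups differed in the opposite direction. Of these the crossed part was negative for Slc40a1 (-4.79), Cr2 (-4.57), Rgs2 (-3.84), Hspa1a (-3.77), S1pr1 (-3.71), Car1 (-3.47) and Fos (-3.37). It was positive for Il2ra (4.15), H2ac4 (4.24), Tpx2 (4.25), Ncapg (4.31), Pros1 (4.59), Socs2 (4.77), Gzmb (4.92), Nfil3 (4.92) and Bub1 (4.97). The labelled resting difference is the shared part minus the crossed part. For genes picked as mostly crossed the opposite direction was therefore fixed by the choice. Of the 16 only Cr2, Il2ra, Pros1 and Gzmb were not picked that way.

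The remaining genes had a difference of the same sign in both pairs of groups, by different amounts. Only the sign was used, and no call was asked of the labelled resting difference. That difference was small for Il24, Cst7 and Akr1c18, at 0.11, 0.16 and 0.25 log2. A negative crossed part was found for Bank1 (-3.24), H2-Aa (-2.77), Ms4a1 (-2.69), Ly6d (-2.66), Cd79a (-2.48), Cd74 (-2.46), Cybb (-2.31), Ly86 (-1.98), Ebf1 (-1.96), Rasgrp3 (-1.45), Il7r (-1.20), Fcer2a (-0.79), Kynu (-0.77) and Mef2c (-0.64). A positive crossed part was found for Gata3 (0.97), Il12rb2 (1.9995), Ecm1 (2.33), Cst7 (2.52), Cyp11a1 (2.87), Il24 (3.12) and Akr1c18 (3.51). Il7r is a gene whose difference was smaller between the labelled activated groups than between the labelled resting groups.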

How the results depend on the processing

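The labelled B groups share the replicate numbers 1 to 3 and the labelled T groups 4 to 6, so a fixed block could be fitted only for the crossed part, not for the difference of labelled activated B and T or the shared part. With this fixed replicate block, an alternative chosen after seeing the data, 4323 genes had a positive and 4093 a negative crossed part, against 4359 and 4159. Same-numbered arrays deviated from their group means with correlations from -0.05 to 0.19, so the numbers were not taken as pairs. With the number as a random replicate block (consensus correlation 0.00334) 8121 genes were called, 4349 higher and 3772 lower. Taking every probe set on its own called 6858 lower in place of 3772, and 7551 with a negative crossed part in place of 4159, over 34760 features in place of 19937. The share of called genes that were higher was 68.5% with median centering, 48.7% with quantile normalization and 47.4% with every probe set, against 53.5%. Leaving out 1 of the 6 labelled activated arrays gave 4023 to 4204 genes higher and 3253 to 3540 lower. The shared part was then called positive for 2629 to 2786 genes and negative for 2163 to 2362. The crossed part was called positive for 4141 to 4308 and negative for 3808 to 4010. No labelled resting array was left out. Among the 217 named genes, no gene that was called had its direction reversed under any alternative run for it. A change of sign in a gene that was not called was not counted. Calls were lost for 9 genes: Ccl17, Ccnd1, Gp9, Itgb7, Klrd1, Retnlg, Slc38a2, Txk and Zbtb46. Calls were gained for 8: Alas2, Ccr7, Epor, Ifng, Itga2b, Mpo, S100a8 and Slc4a1. The causes were not tested. The shared and crossed parts were not run on the 6 arrays alone, nor the lists and named genes with every probe set.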
